A study of Rattus norvegicus with 9 samples.

Results

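RNA sequencing counted 22637 genes in 9 rat kidney samples. Of these genes, 42 were expressed at a moderate level or above in the control and disease-model samples. They lay clearly higher in each sample labelled as treated with mesenchymal stem cells (MSCs). They were chosen on their own values. CPM, the unit of level used here, is a gene's count divided by the total of its library and multiplied by 1000000. A gene is a member where its mean CPM over the 6 control and disease-model libraries was 5 or more and its lowest CPM in the 3 MSC libraries was at least 2 times its highest CPM in those 6. The 100 genes with the highest mean in controls were left out, and 0 of them would have passed. The quotient of the lowest MSC value and the highest of the other 6 values is called the margin here, and members are numbered from 1 to 42 by falling margin. Because these values made the choice, the higher level in MSC kidneys is described below and not tested.

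The samples, 3 per group, came from SD rats. They were controls, model animals with chronic kidney disease (CKD), and animals labelled as treated with MSCs, whom the series title places in a CKD model with infusion into the renal parenchyma under ultrasound guidance. No group is labelled as given an infusion without cells, so the part of the infusion itself was not tested. The means of inducing disease, the rats' age, the origin and dose of cells and the sampling time are not given in the sources used here. Below, the kidneys of a group are its samples, since it is not stated whether the replicates were separate animals. The p-values then measure no more than the spread between these samples, which may be technical. Chronic kidney disease is a lasting loss of kidney function that commonly goes with loss of tubules, scarring of the tissue between them and infiltration by immune cells. MSCs are multipotent stromal cells, first described in bone marrow, that are studied as a cell therapy mainly for the factors they release. A bulk library pools the RNA of all cells of a tissue piece, so that fewer cells of a type and less RNA per cell cannot be told apart, and neither can RNA of infused cells and of the host where both come from the same species.

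The deposited table names genes by Ensembl identifiers alone. Of the 47357 rat genes in the reference table used here, 0 carried such an identifier, and 0 of the 42 members received a symbol. The members are therefore described by their levels and by their behaviour across libraries, without function, position or sequence. Only the 2 with the largest margins are given by identifier, and the tissue label was not checked against marker genes.

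Library totals ran from 47633344 to 48767298 counts in MSC kidneys, from 53059872 to 54234681 in controls and from 56442995 to 58546847 in CKD kidneys, with no overlap between groups. The part of this difference in depth in the results was not tested, beyond the scaling to CPM. The factors of TMM scaling (trimmed mean of M-values, which corrects for a few genes taking many counts) ran from 0.899 in control replicate 3 to 1.11 in CKD replicate 2. CKD replicate 2 was the highest of the 6 control and CKD libraries in 23 of the 42 members (54.8%). That was so for 43.6% of all genes at the level limit with a count in each library. With TMM scaling the shares were 42.9% and 21.4%. With CKD replicate 2 left out of the rule 174 genes qualified in place of 42. Of these, 38 were shared, which is 21.8% of the longer list and 90.5% of the shorter. The 10 most abundant genes held 15.1% to 18.1% of counts in MSC libraries and 11.01% to 14.2% in the other 6.

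The limits of the rule cut through a continuum. Of the 11478 genes with a mean of at least 5 CPM in control and CKD kidneys, 1420 (12.4%) had all 3 MSC values above the other 6. A margin of at least 1.5 was reached by 171 genes, of at least 2 by 42, of at least 3 by 6 and of at least 4 by 1. The last members inside had margins of 2.02, 2.01 and 2.00, and the first genes outside had 1.98, 1.96 and 1.95. At the level limit, the lowest members averaged 5.09, 5.35 and 5.45 CPM over the 6 libraries, and the genes just below averaged 4.85, 4.81 and 4.81 CPM. A further 418 genes with a margin of at least 2 and some count in the other 6 libraries lay below the level limit. The mirrored rule, the lowest of the 6 at least 2 times the highest MSC value, took 71 genes.

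**Figure D1:**
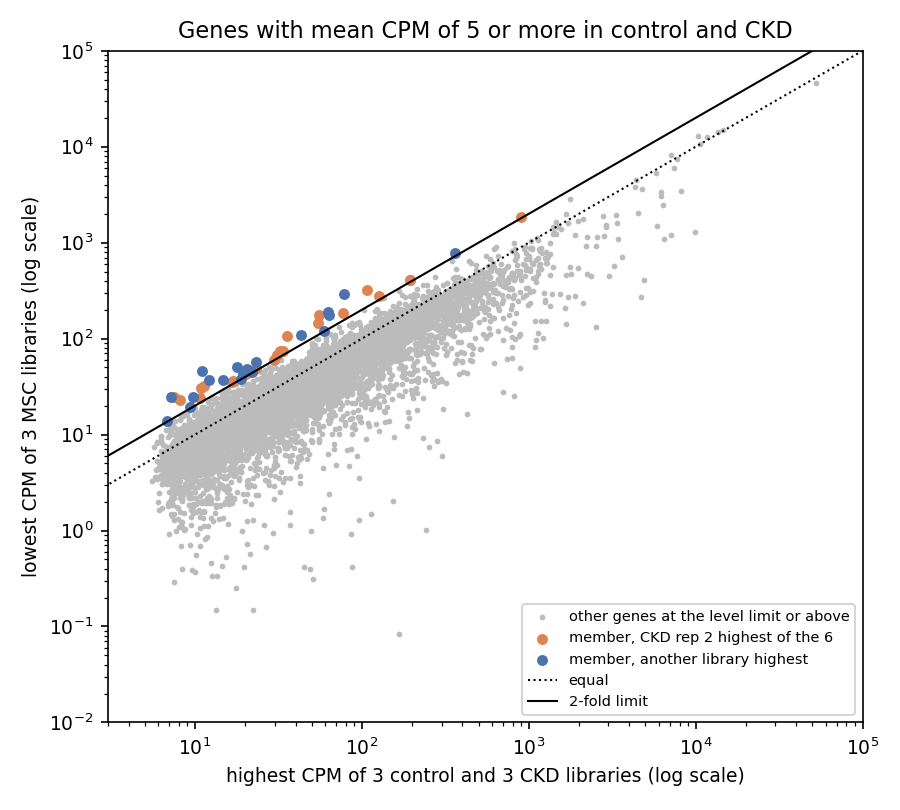
Lowest CPM of the 3 MSC libraries against highest CPM of the 6 control and CKD libraries, both on log scales, for genes with a mean of 5 CPM or more in those 6. The 42 coloured members lie on or above the line of a 2-fold margin, and 23 of them (orange) have their highest non-MSC value in CKD replicate 2.

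The members were mostly of modest abundance. Their mean over the 6 non-MSC libraries ran from 5.09 to 759 CPM with a median of 16.3, against a median of 32.3 CPM for all 11478 genes at the level limit or above, and 32 of the 42 lay at or below that median. In 13 members this mean was under 10 CPM and in 3 it was at least 100 CPM. Counts were nevertheless ample. The smallest count of any member in any library was 136, for which counting error alone is 8.57%.

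Together the members held 0.196% ± 0.0295 of all counts in control kidneys, 0.205% ± 0.0545 in CKD kidneys and 0.850% ± 0.165 in MSC kidneys (SD, n = 3 each). Library by library the share was 0.218%, 0.208% and 0.162% in controls, 0.197%, 0.263% and 0.155% in CKD kidneys, and 1.02%, 0.831% and 0.695% in MSC kidneys. The summed level thus lay higher in each MSC library than in any other, as the rule requires, while CKD replicate 2 was the highest of the remaining 6 and CKD replicate 3 the lowest. A single member, number 38, made up 38.1% of the members' summed mean in controls and 26.0% in MSC kidneys.

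The size of the difference varied widely between members. The ratio of the MSC mean to the control mean ran from 2.39 to 22.4 with a median of 4.72, and it was at least 4 in 27 members, at least 8 in 8 and at least 16 in 3. Over CKD kidneys the ratio ran from 2.41 to 9.88 with a median of 4.38, and it was at least 8 in 4 members and at least 16 in 0. The same MSC libraries serve in both ratios. The ratio over control exceeded that over CKD in 29 members and was the smaller in 13, which restates whether the CKD mean lay above the control mean. With scaling by library totals alone, the fitted fold of CKD over control was above 0 in 29 members and in 61.2% of all tested genes. In the model fitted to all genes (edgeR's quasi-likelihood test, adjusted p under 0.05), 11.4% of 17584 tested genes were called higher in MSC kidneys when set against CKD and 16.9% when set against control. All 42 members were among the called genes in both comparisons, which follows the choice of members and is no evidence of its own. Of 380 genes at the level limit or above that were called and at least 2-fold higher in the fit in both comparisons, the 42 members are the part whose libraries were also separated by a margin of 2.

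**Figure D2:**
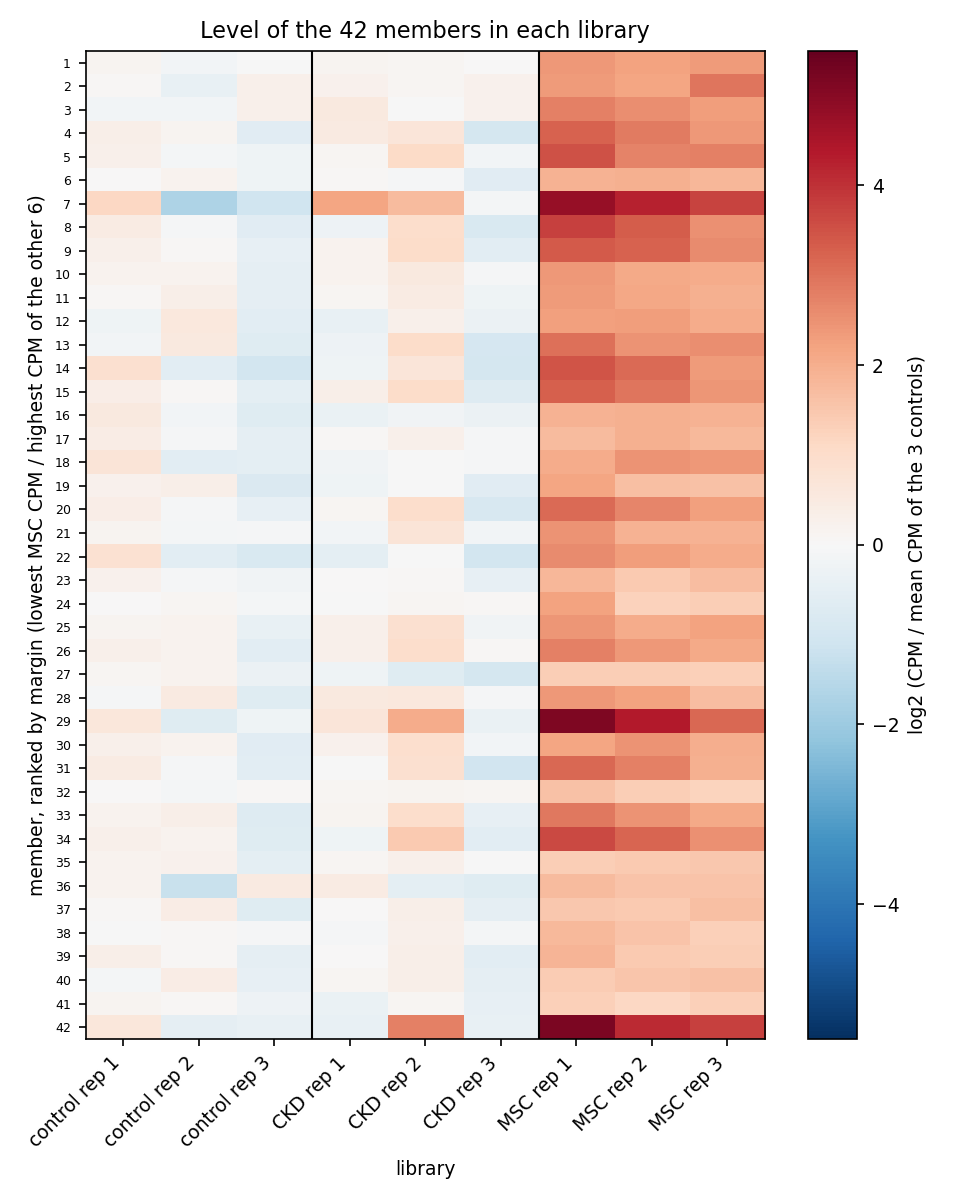
Log2 of each member's CPM over its mean in the 3 controls (colour), for the 42 members in order of falling margin (rows) and the 9 libraries (columns). Values in the 3 MSC columns lie above 0 for all 42 members, and the deepest red falls in MSC replicate 1 for members 7, 29 and 42.

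The member with the largest margin, ENSRNOG00000031540, was among the steadiest. Its level was 10.9, 8.91 and 9.66 CPM in controls, 10.98, 10.6 and 9.84 CPM in CKD kidneys, and 51.5, 45.6 and 49.2 CPM in MSC kidneys. Control and CKD values overlapped, and the lowest MSC value was 4.15 times the highest of the other 6. The mean was 9.84 ± 1.02 CPM in controls, 10.5 ± 0.579 CPM in CKD and 48.8 ± 2.98 CPM in MSC kidneys (SD, n = 3 each). The MSC mean was 4.96 times the control mean and 4.66 times the CKD mean. The log2 fold between CKD and control kidneys was 0.02 ± 0.12 (SE) with a 95% interval from -0.25 to 0.30 (edgeR adjusted p = 0.98).

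ENSRNOG00000046005, next by margin, had 68.6, 49.2 and 78.2 CPM in controls, 77.9, 71.2 and 77.2 CPM in CKD kidneys, and 326.6, 294.1 and 499.6 CPM in MSC kidneys. Here MSC replicate 3 was the highest library, unlike in most members, and the highest MSC value was 1.70 times the lowest. Its means were 65.3 ± 14.8, 75.4 ± 3.70 and 373 ± 110.5 CPM in the order of groups above (SD, n = 3 each). The margin was 3.76. Between CKD and control kidneys the log2 fold was 0.13 ± 0.26 (SE) with a 95% interval from -0.45 to 0.71 (edgeR adjusted p = 0.932).

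The most abundant member, number 38, ranked 127 by mean level among all genes in controls. It had 746, 787 and 709.7 CPM in controls, 716, 903 and 689.6 CPM in CKD kidneys, and 2577, 2222 and 1838 CPM in MSC kidneys. Its ratios were low for a member, 2.96 over control and 2.87 over CKD, and its margin of 2.03 was set by CKD replicate 2. Member 27, next in abundance, had 337, 362 and 250.2 CPM in controls, 267, 199 and 163 CPM in CKD kidneys, and 799.9, 797.5 and 784.2 CPM in MSC kidneys. Its MSC values were the closest together of all members, with the highest 1.02 times the lowest, although the other 6 differed by up to 2.22 times.

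Members 42, 29 and 7 had the largest ratios over control, and in each the levels outside the MSC group were uneven. Member 42 had 6.69, 3.11 and 3.32 CPM in controls, 3.31, 29.9 and 3.30 CPM in CKD kidneys, and 159, 75.4 and 59.8 CPM in MSC kidneys. CKD replicate 2 alone lay at 7.58 times the mean of the other 5 libraries, and that value brought the margin down to 2.00 while the ratio of the MSC mean to the control mean was 22.4. Member 29 had 6.19, 2.56 and 3.47 CPM in controls, 6.45, 16.9 and 3.19 CPM in CKD kidneys, and 142, 84.5 and 36.4 CPM in MSC kidneys. It had the widest spread among MSC kidneys, 3.89 times, and CKD replicate 2 again stood above the other 5. Member 7 had 31.3, 4.30 and 6.69 CPM in controls, 62.8, 46.5 and 12.9 CPM in CKD kidneys, and 396, 265 and 187 CPM in MSC kidneys. In this gene the 6 non-MSC values spanned 14.6 times, the most of any member, with control replicate 1 and CKD replicates 1 and 2 high.

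The steadiest members across control and CKD kidneys were of another kind. In 3 members the highest of the 6 values was only 1.17, 1.20 and 1.23 times the lowest: member 24, member 32 and ENSRNOG00000031540. Member 32 ran from 13.9 to 16.7 CPM over the 6 libraries and had 45.6, 38.3 and 35.5 CPM in MSC kidneys. Member 24 ran from 9.22 to 10.8 CPM and had 45.9, 23.9 and 25.3 CPM in MSC kidneys, so that MSC replicate 1 alone lay far above the other two. Over all members, the highest of the 6 values was a median of 2.35 times the lowest and more than 3 times the lowest in 15 members. For the 11471 genes at the level limit with a count in each library the median was 1.47 times. The rule caps the highest of the 6 values but sets no limit on their spread.

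Replicates of a group were further apart for the members than for most expressed genes. The median coefficient of variation (SD as a percentage of the mean) was 29.5% among controls, 27.7% among CKD kidneys and 19.9% among MSC kidneys. Over those 11471 genes it was 11.9%, 13.5% and 13.2%. The spread had a shared order. CKD replicate 3 was the lowest CKD library in 36 of 42 members, control replicate 3 the lowest control in 32 and MSC replicate 3 the lowest MSC library in 27, which was so for 44.4%, 57.6% and 42.7% of the 11471 genes. Replicate 3 was the lowest in all 3 groups at once in 20 members (47.6%), against 17.0% of the 11471 genes, and with TMM scaling in 18 members against 9.29%. Deviations from the group mean over all tested genes correlated at 0.208, 0.13 and 0.265 between the libraries numbered 3, and at no more than 0.096 between those of another shared number. At the upper end, CKD replicate 2 was the highest CKD library in 35 members, control replicate 1 the highest control in 23 and MSC replicate 1 the highest MSC library in 31, which was so for 59.1%, 30.9% and 52.9% of the 11471 genes.

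On the scale of log2 CPM against the control mean, the median member lay at 0.21, 0.05 and -0.49 in controls, 0.08, 0.38 and -0.38 in CKD kidneys, and 2.40, 2.20 and 2.04 in MSC kidneys. The same median over the 11471 genes stayed between -0.10 and 0.15 in all 9 libraries. Members above their control mean numbered 34 in CKD replicate 2, 26 in CKD replicate 1 and 6 in CKD replicate 3. TMM scaling kept this order of libraries at its ends, with medians of 0.19 in CKD replicate 2 and in control replicate 1, -0.35 in CKD replicate 3 and -0.38 in control replicate 3. On that scale MSC replicate 1 was the highest MSC library in 28 members in place of 31, while its share of the 11471 genes went from 52.9% to 38.7%. CKD replicate 2 was the highest of the 6 in 18 members in place of 23, while its share of those genes went from 43.6% to 21.4%. It was the highest CKD library in 28 members in place of 35, beside 31.9% of those genes in place of 59.1%.

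**Figure D3:**
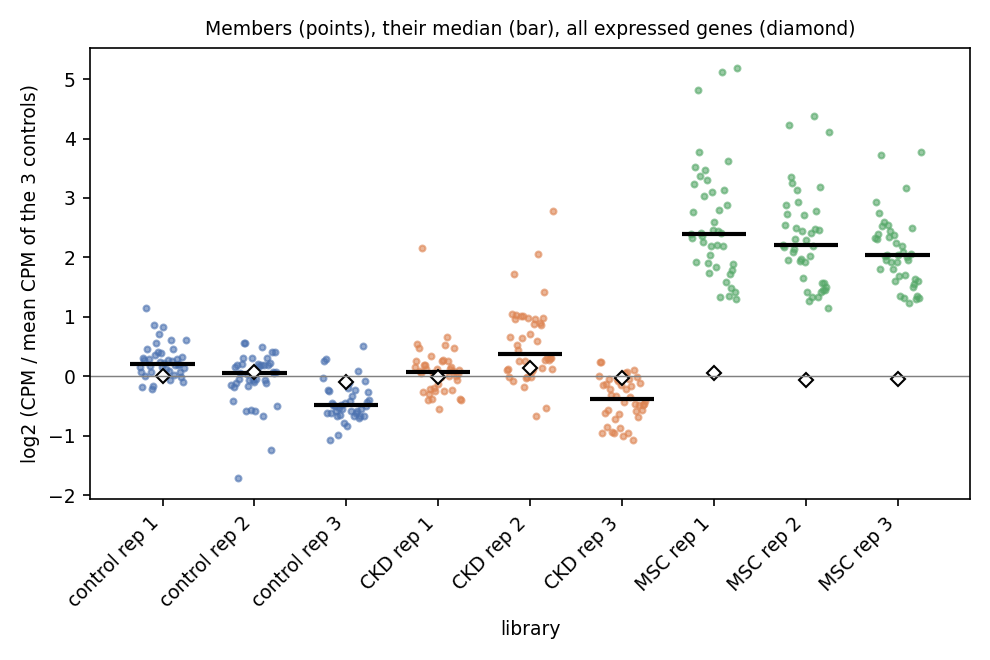
Log2 of CPM over the control mean for the 42 members (points) in each of the 9 libraries, with their median (bar) and the median of 11471 expressed genes (diamond). Member medians run from -0.49 to 0.38 in control and CKD libraries and from 2.04 to 2.40 in MSC libraries, whereas the diamonds stay near 0.

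The members were also split by the library that set their limit. CKD replicate 2 was the highest of the 6 in 23 members, and in 21 of these MSC replicate 1 was the highest MSC library. In the other 19 members MSC replicate 1 was the highest in 10. The highest MSC value was a median of 1.71 times the lowest in the 23 members, with a range from 1.11 to 3.89, and a median of 1.19 times in the 19, with a range from 1.02 to 2.19. Over the 11471 genes the same split gave medians of 1.31 and 1.27, and MSC replicate 1 was the highest in 74.8% and 35.9%. Since the members were split on their own values, these figures are a description. CKD replicate 2 and MSC replicate 1 also had the highest TMM factors, 1.11 and 1.08. With TMM scaling CKD replicate 2 was the highest of the 6 in 18 members, and MSC replicate 1 was the highest MSC library in 16 of these. It was the highest in 12 (50%) of the other members. The medians of the highest over the lowest MSC value were then 1.62 and 1.23. Over the 11471 genes they were 1.35 and 1.24, and MSC replicate 1 was the highest in 69.1% and 30.5%. The part of scaling in this profile was not tested further.

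The comparison of CKD with control kidneys asks whether genes higher in MSC kidneys already differed in the disease model. The rule puts 1 upper limit on those 6 libraries alike, so it does not set the direction of this comparison. It keeps out genes that were high in any control or CKD library. The values below therefore describe the members and do not show that the genes higher in MSC kidneys were alike in CKD and control kidneys. No member passed the threshold between CKD and control kidneys in the edgeR fit (0 of 42, adjusted p of 0.756 or more), and 0% of all 17584 tested genes were called. DESeq2 called 0 members and 71 of 17559 genes (0.404%), and limma-voom called 0 members and 0 genes. Shares this low leave next to no calls to be found among 42 genes. The tested genes include genes below the level limit of the rule, so the shares of tested genes given here and below are not matched to the members in level. Before adjustment 2 members (4.76%) had p under 0.05, against 6.55% of tested genes. The fitted fold was above 0 in 26 members (61.9%) and below 0 in 16, against 50.7% of tested genes above 0. The median log2 fold was 0.06, beside a median of 0.00 over all tested genes. Without CKD replicate 2 the fold was above 0 in 14 members, beside 48.2% of tested genes, the median was -0.11, and 0 members were called.

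Both members with an unadjusted p under 0.05 had the lower mean in CKD kidneys. Member 27 had a log2 fold of -0.65 ± 0.19 (SE), a 95% interval from -1.08 to -0.21 and an edgeR adjusted p of 0.756, although its highest CKD value, 267 CPM, exceeded its lowest control value, 250.2 CPM. Member 41 had a log2 fold of -0.29 ± 0.13 (SE, edgeR adjusted p = 0.756). The largest positive folds belonged to member 7, at 1.46 ± 0.75, member 42, at 1.32 ± 0.79, and member 29, at 0.99 ± 0.61 (SE, edgeR adjusted p of 0.756, 0.778 and 0.779). Their intervals all included 0. Control and CKD values did not overlap in 1 member (2.38%), number 32, against 10.2% of tested genes, and its log2 fold was 0.06 ± 0.13.

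The 95% intervals of these folds describe the spread in the fit and set no bound on the difference between CKD and control kidneys. The rule put an upper limit on the same control and CKD values from which the intervals were computed. The replicates may also be technical. The 95% interval lay within 2-fold either way for 27 of the 42 members (64.3%), beside 64.0% of the 17552 tested genes with an interval. The median half-width of the interval was 0.55 in log2 units for the members and 0.51 for those tested genes. The tested genes include genes below the level limit of the rule, so these figures are not matched for level and do not compare precision at a like level. For the remaining members a 2-fold difference lay within the interval.

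**Figure D4:**
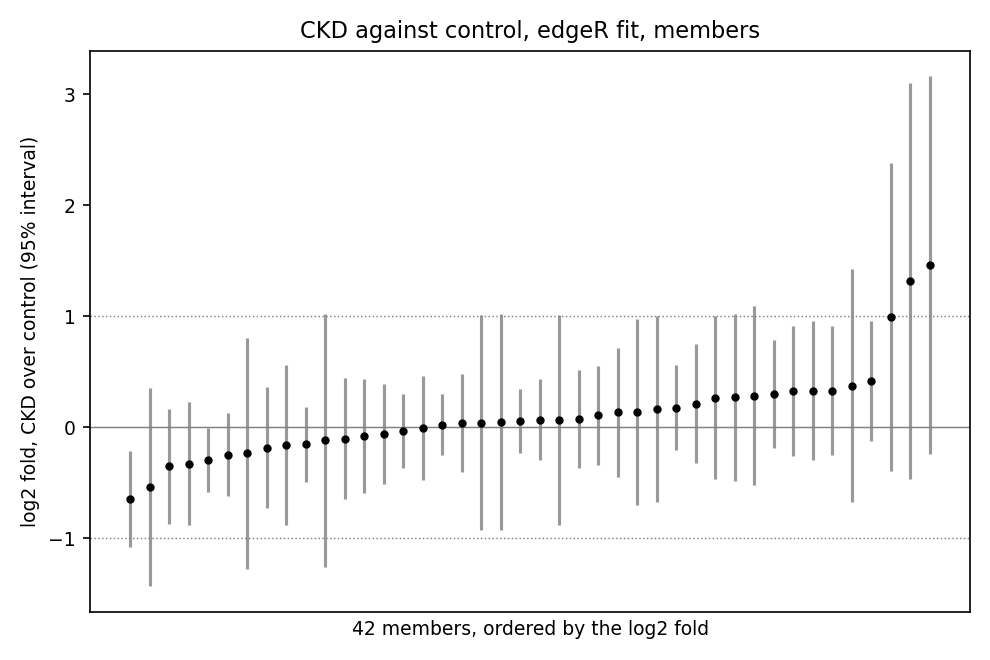
Fitted log2 fold of CKD over control for the 42 members, ordered by size, with 95% intervals and dotted lines at 2-fold either way. Folds run from -0.65 to 1.46, and the intervals of 27 members stay within the dotted lines.

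Each library was also left out of the rule in turn. Without MSC replicate 1, 44 genes qualified on the other 8 libraries, without MSC replicate 2 it was 49, and without MSC replicate 3 it was 123. Each list holds the 42 members by construction. The genes gained, 2, 7 and 81, are those in which the library left out fell short of 2 times the highest control or CKD value. MSC replicate 1 still lay above all 6 of those values in 44 of 44 genes, MSC replicate 2 in 48 of 49 and MSC replicate 3 in 121 of 123, beside 32.6%, 22% and 19% of all 11478 genes at the level limit. The 6 values were themselves chosen to be low, so these counts are a description and no support for the difference. MSC replicate 3 was thus the MSC library that most often kept a gene from the rule.

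Among the other 6 libraries, only CKD replicate 2 changed the number of genes by more than 1.5 times. When another of these libraries was left out, between 42 and 53 genes qualified. In the 174 genes chosen without it, CKD replicate 2 exceeded all 5 remaining control and CKD values in 155 (89.1%), against 42.8% of all genes, and was at least 2 times the highest of them in 58, against 0.96% of all genes. The 136 genes gained are those in which it exceeded the 2-fold limit, and it lay below all 3 MSC libraries in 144 of the 174. The lists use CPM by column totals, and the part of this scaling in them was not tested. On that scale CKD replicate 2 was the highest of the 6 in 43.6% of the 11471 genes, against 21.4% with TMM scaling. Each such list was chosen for low values in 5 libraries, so the counts from these lists are a description and their cause was not tested. Control replicate 1 was likewise above the other 5 in 20 of its 53 genes (37.7%, against 11.6% of all genes). For control replicate 2 it was 9 of 45 genes against 16.4% of all genes, and for control replicate 3 it was 2 of 44 against 9.88%. For CKD replicate 1 it was 3 of 42 against 5.39%, and for CKD replicate 3 it was 2 of 47 against 12.4%. The median ratio of CKD replicate 2 to the mean of the other 5 was 2.16 in its 174 genes, which were chosen for low values in those 5, and 1.11 over all genes.

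**Figure D5:**
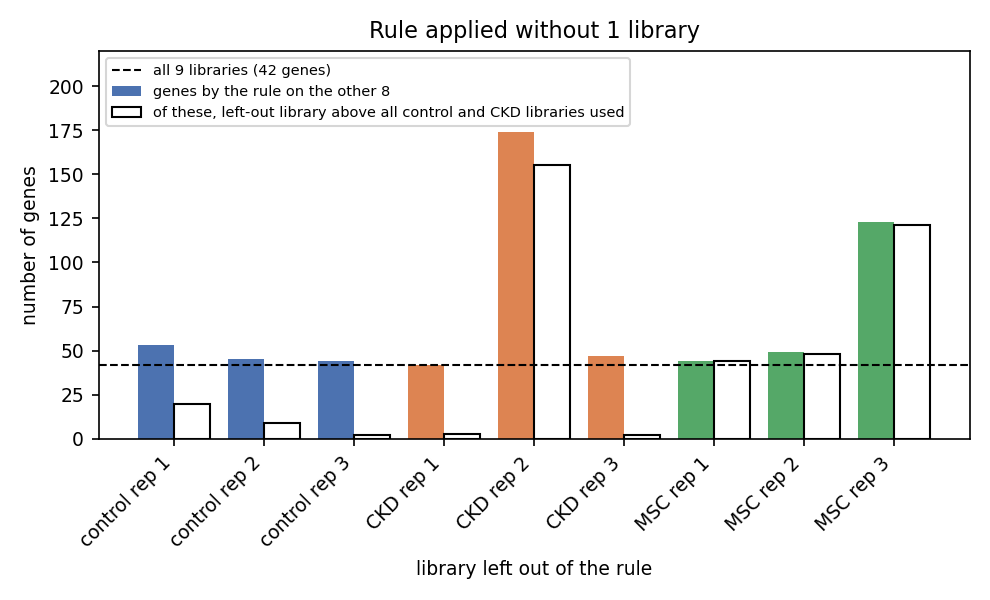
Number of genes that qualified when 1 library was left out of the rule (coloured bars) and number of these in which that library lay above all control and CKD libraries used (white bars). The coloured bars stand at 174 without CKD replicate 2 and 123 without MSC replicate 3, and between 42 and 53 without any other library.

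Many more genes had a higher mean in MSC kidneys than the rule admitted. The MSC mean was at least 2 times the mean of the other 6 libraries in 697 genes at the level limit, of which 655 were not members. In 439 of the 655 all 3 MSC values still exceeded the other 6, and in 216 the values overlapped. CKD replicate 2 was the highest of the 6 in 549 of the 655 (83.8%), compared with 23 of the 42 members and 43.6% of the 11471 genes. The 655 are genes with a margin under 2, so their choice bears on this share, which is a description. By the rule, the members are the genes at the level limit with the widest margins.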

How the data were processed

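Polyadenylated RNA of 9 rat kidney samples was sequenced from strand-specific libraries, per the labels' protocols. The submitters' processing notes name cutadapt, HISAT2, StringTie and the genome build Rnor_6.0. The authors deposited raw counts for 22637 Ensembl genes, with 1 column per sample. Tool versions, annotation release and the strand setting of counting are not given in the sources used here. CPM used column totals. The main test was edgeR 4.0.16 under R 4.3.3 (filterByExpr, TMM, robust quasi-likelihood fit of all 9 libraries by group, Benjamini-Hochberg over 17584 genes), after a check on simulated data. Intervals use the SE derived from the F statistic. Alternatives used DESeq2 1.42.0, limma 3.58.1, other scaling, no filter, other limits of the rule, single libraries left out, and the replicate number as a block. The members and lists were chosen with earlier results of these data known. The 46 gene lists drawn up for this work were not used, since no identifier had a symbol. Without symbols, the naming rule gives identifiers for the 2 members with the largest margin. Members cited by number, and the counts in left-out libraries, were picked after their values were seen.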

Additional observations from a re-analysis of the deposited data

How the results depend on the processing

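The 42 members became 170 with a fold limit of 1.5, 6 with a limit of 3 and 82 with a level limit of 2 CPM, as these limits imply, and ran from 42 to 174 with each library left out (174 without CKD replicate 2, 123 without MSC replicate 3). TMM-scaled CPM gave 52 genes, 36 of them shared. The level limit of 10 CPM gave 29. With each library left out, calls over all genes in MSC against CKD (4010 with all libraries) ran from 1499, without MSC replicate 2, to 4652. Dropping CKD replicate 1 gave 1776, dropping CKD replicate 3 gave 1641 and dropping MSC replicate 1 gave 1961. Calls in MSC against control (5677) ran from 3077, without MSC replicate 2, to 5890. They numbered 3232 after control replicate 3 was dropped and 3261 after MSC replicate 1 was dropped. Calls in CKD against control (0) ran from 0 to 2. DESeq2 called 71 genes in CKD against control, and the cause was not tested. No member was called in that comparison under any of the 15 alternatives, of which only DESeq2 called more than 2 genes. The log2 fold of ENSRNOG00000031540 between CKD and control ran from -0.076 (without control replicate 2) to 0.103 with single libraries left out, and was -0.04 without CKD replicate 1. That of ENSRNOG00000046005 ran from -0.063 (without control replicate 2) to 0.355. Same-numbered libraries deviated together (correlation over 0.1) in 3 of 9 pairs, which are the 3 pairs of libraries numbered 3. The labels state no pairing, so the main fit did not take the numbers to pair the libraries. Correlations between libraries of unlike number were not computed, so pairing by number was not tested. With the replicate block 4493, 6033 and 0 genes were called in the 3 comparisons and 0 members in CKD against control. Depth adds counting error of at most 8.57% to a member's count, and the part of the groups' unequal depth was not tested.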
